A study of Homo sapiens with 6 samples.

Results

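GPR180, SKAP2, TEX30, SLK and C5orf15 are 5 genes whose signal lay far below control after transfection of MYEOV siRNA 1 and did not after MYEOV siRNA 2. They were picked out of 14884 genes with a named row on the array, on the values of both siRNA comparisons themselves, so their levels and differences are given here as a description, with no test. Each of the 5 had 1 row on the array, and all 5 passed the level filter that left 7442 genes for testing. All arrays came from A549, a human lung adenocarcinoma cell line, 48 hours after lipid-mediated transfection of a control siRNA (labelled siNC), MYEOV siRNA 1 (siMYEOV #1) or MYEOV siRNA 2 (siMYEOV #2). Each of the 3 groups had 2 arrays of total RNA, and all 3 groups, the control included, had received a transfected siRNA; no untransfected cells are among the samples. The labels do not say whether the 2 arrays of a group came from separate transfections, so the spread between them may be technical. No siRNA sequence was at hand.

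The 5 genes belong to no common family. GPR180 encodes a membrane protein with a GOLD domain and several membrane-spanning segments. SKAP2 is a cytoplasmic adaptor that is phosphorylated by Src-family kinases and links receptors to the actin cytoskeleton. SLK is a STE20-like serine/threonine kinase that phosphorylates ezrin, radixin and moesin, the proteins that tie actin to the plasma membrane. TEX30 encodes an alpha/beta hydrolase-like protein related to KANSL3, a subunit of a histone acetyltransferase complex. C5orf15 encodes a small transmembrane protein also called KCT2. A small interfering RNA loads into the RNA-induced silencing complex and guides cleavage of its perfectly matched target, and its seed bases can also lower other transcripts that match them, which is why knock-down studies compare several siRNAs against the same gene.

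The 250 bases upstream of an annotated start of each gene are shown. A single window was kept per gene, which left 27305 of 35116 windows. Whether the window kept for a gene with several starts is that of its main promoter was not tested. The windows of the 5 genes, which were low in the same arrays, are set side by side. They are from RefSeq (GRCh38.p14), 5′ to 3′ on the strand of the gene, at chr13:94601607-94601856 (plus strand), chr7:26857724-26857973 (minus strand), chr13:102773787-102774036 (minus strand), chr10:103966890-103967139 (plus strand) and chr5:133968626-133968875 (minus strand). Capitals mark every match, on either strand, of the 9 motifs searched.
GPR180: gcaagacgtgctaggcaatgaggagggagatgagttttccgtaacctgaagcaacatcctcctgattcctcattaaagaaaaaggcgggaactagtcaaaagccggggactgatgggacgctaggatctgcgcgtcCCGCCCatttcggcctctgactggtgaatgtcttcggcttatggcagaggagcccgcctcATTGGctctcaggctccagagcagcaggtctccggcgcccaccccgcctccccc
SKAP2: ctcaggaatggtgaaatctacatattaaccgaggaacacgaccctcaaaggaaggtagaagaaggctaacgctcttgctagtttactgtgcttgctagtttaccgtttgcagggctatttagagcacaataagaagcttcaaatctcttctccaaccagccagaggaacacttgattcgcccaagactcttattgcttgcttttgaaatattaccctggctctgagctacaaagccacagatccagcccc
TEX30: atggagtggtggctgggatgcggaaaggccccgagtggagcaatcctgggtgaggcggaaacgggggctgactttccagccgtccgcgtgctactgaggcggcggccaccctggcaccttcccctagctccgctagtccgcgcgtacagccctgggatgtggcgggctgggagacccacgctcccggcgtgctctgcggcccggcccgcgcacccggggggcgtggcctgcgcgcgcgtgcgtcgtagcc
SLK: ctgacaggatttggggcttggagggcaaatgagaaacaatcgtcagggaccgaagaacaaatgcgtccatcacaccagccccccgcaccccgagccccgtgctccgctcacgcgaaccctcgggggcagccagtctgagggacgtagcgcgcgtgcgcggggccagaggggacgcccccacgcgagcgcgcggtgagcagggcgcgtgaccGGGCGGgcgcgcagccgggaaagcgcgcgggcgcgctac
C5orf15: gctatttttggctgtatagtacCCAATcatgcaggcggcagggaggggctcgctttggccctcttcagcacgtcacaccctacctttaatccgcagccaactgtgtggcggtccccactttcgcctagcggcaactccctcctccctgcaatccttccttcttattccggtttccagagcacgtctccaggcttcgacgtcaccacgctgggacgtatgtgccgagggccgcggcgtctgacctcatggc
The promoter motifs were TATAAA for the TATA box, GGGCGG for the GC box and CCAAT itself. Those of transcription factors were CCGGAAG for the ETS family, TGACGTCA for the cAMP response element, CACGTG for the E-box, CGCATGCG for NRF1, AAGATGGC for YY1 and TTTCCCGC for E2F. No match overlapped another in these windows. No motif was found in more than 2 of the 5 windows. The GC box occurred upstream of GPR180 (CCGCCC, its reverse complement, beginning 114 bases before the start) and SLK (39 bases), and in 69.7% of the 6021 windows of tested genes. The CCAAT box occurred upstream of GPR180 (ATTGG, 54 bases) and C5orf15 (228 bases), and in 35.6% of those windows. The TATA box and the motifs of the ETS family, the cAMP response element, the E-box, NRF1, YY1 and E2F were found in 0 of the 5, against 4.7%, 17.1%, 3.1%, 9.1%, 3.8%, 1.9% and 2.5% of the windows. These are matches of letters, not shown binding sites. The NRF1 motif was shortened after its matches had been seen, from a longer form with a variable base that matched upstream of SLK and of none of the other 4. The windows also differed in base composition, from 45.2% G and C for SKAP2 to 72.8% for TEX30. GPR180 had 58.4%, C5orf15 59.6% and SLK 71.2%, where the median of the tested genes was 65.6%. These values and the motif matches hold for the window kept for each gene, and any other annotated start was not analysed here. SLK and C5orf15 each had an uncharacterised locus annotated on the opposite strand, with starts 95 and 64 bases away.

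MYEOV, the gene both siRNAs were designed against, was lower with each. Its signal, on the log2 scale of RMA (a background-corrected, between-array normalised summary of each transcript's probes), was 6.20 and 6.50 in the controls. The siRNA 1 arrays had 5.34 and 5.19 and the siRNA 2 arrays 5.23 and 4.70, so the 4 knock-down arrays lay below both controls. It had a log2 difference from control of -1.09 ± 0.18 (SE; limma, a linear-model test that shares the estimate of spread between genes, Benjamini-Hochberg adjusted p = 0.0215) with siRNA 1 and of -1.39 ± 0.18 (adjusted p = 0.00516) with siRNA 2. The siRNA 1 call was lost without any 1 of the 4 arrays compared, with limma adjusted p of up to 0.146. The 5 genes were therefore low in only 1 of the 2 groups in which MYEOV was low. The 5 epithelial markers of A549 with a row, KRT8, KRT18, KRT7, KRT19 and EPCAM, had mean levels above the filter, and all 6 leukocyte, endothelial and fibroblast markers with a row, CD14, LYZ, PECAM1, VWF, DCN and LUM, lay below it, at 4.66 or less on every array. The medians of the 6 arrays lay between 4.08 and 4.10.

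GPR180, the GOLD-domain membrane protein, had log2 RMA signals of 8.28 and 8.41 in the controls, 6.88 and 6.95 in the siRNA 1 arrays and 8.49 and 8.67 in the siRNA 2 arrays. Both siRNA 1 arrays were low, and the siRNA 2 arrays lay just above both controls. The log2 difference from control was -1.43 ± 0.09 (SE, n = 2 arrays per group) with siRNA 1 and 0.24 ± 0.09 with siRNA 2. This leaves 37.2% of the control signal with siRNA 1. Here and for the other genes the SE is that of limma, which pools the spread of all 6 arrays and shares it between genes. It is not the spread of the gene's own replicates alone. GPR180 had the second lowest difference of all 7442 tested genes, both against control and against siRNA 2, where it was -1.66 ± 0.09.

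SKAP2, the Src-kinase adaptor, had 7.26 and 7.49 in the controls, 6.26 and 6.10 in the siRNA 1 arrays and 7.50 and 7.69 in the siRNA 2 arrays. The pattern matched that of GPR180, with low siRNA 1 arrays and siRNA 2 arrays at or just above the higher control. Its log2 difference from control was -1.20 ± 0.11 (SE) with siRNA 1, which is 43.6% of the control signal, and 0.22 ± 0.11 with siRNA 2. Its 2 control arrays were 0.23 apart, the widest control gap among the 5 genes, where the median gap over all tested genes was 0.10.

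SLK, the kinase of the ezrin, radixin and moesin proteins, had 10.63 and 10.61 in the controls, 9.63 and 9.41 in the siRNA 1 arrays and 10.63 and 10.49 in the siRNA 2 arrays. Its siRNA 2 arrays overlapped the controls, while the siRNA 1 arrays were low and stood 0.22 apart. The log2 difference from control was -1.10 ± 0.10 (SE) with siRNA 1, or 46.6% of the control signal, and -0.06 ± 0.10 with siRNA 2. It was -1.21 without siRNA 1 replicate 1 and -0.99 without siRNA 1 replicate 2.

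TEX30, the hydrolase-like protein, had 5.96 and 6.01 in the controls, 4.81 and 4.78 in the siRNA 1 arrays and 5.94 and 5.83 in the siRNA 2 arrays. It was the member nearest the level filter, with a mean of 5.55 over the 6 arrays against a limit of 5.45, and RMA compresses differences of dim rows. The log2 difference was -1.19 ± 0.07 (SE) with siRNA 1, or 43.8% of the control signal, and -0.10 ± 0.07 with siRNA 2. TEX30 was the only 1 of the 5 whose siRNA 2 arrays both lay below both controls.

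C5orf15, the small transmembrane protein, had 9.37 and 9.41 in the controls, 8.04 and 8.10 in the siRNA 1 arrays and 9.46 and 9.48 in the siRNA 2 arrays. Replicate arrays agreed to within 0.07 in every group. The log2 difference was -1.32 ± 0.07 (SE) with siRNA 1, or 40.0% of the control signal, and 0.08 ± 0.07 with siRNA 2.

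**Figure D1:**
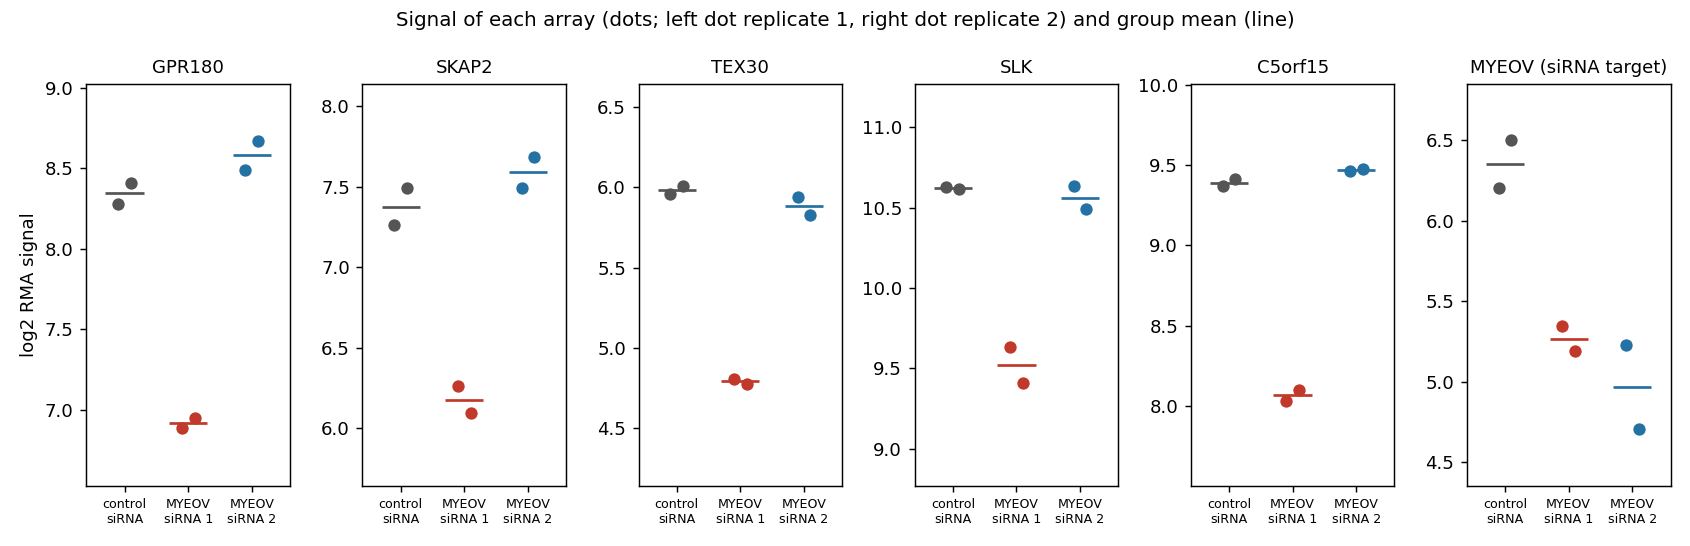
Log2 RMA signal of each array (dots) and group means (lines) for the 5 genes and for MYEOV, in 1 panel per gene; every vertical axis spans the same number of log2 units. In each of the first 5 panels the siRNA 1 dots lie at least 0.86 below every other dot, whereas MYEOV is low with both siRNAs.

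The gap that separated the groups exceeded the replicate spread in all 5 genes, which their choice largely fixes. Between the higher siRNA 1 array and the lowest of the 4 other arrays it was 1.33 for GPR180, 1.27 for C5orf15, 1.02 for TEX30, 1.00 for SKAP2 and 0.86 for SLK. The 2 arrays of a group differed by at most 0.23 in these genes. Both siRNA 1 arrays lay below the 4 other arrays in 5 of the 5 genes, which the choice of the genes fixes, and in 13.5% of all tested genes. Set in order of the siRNA 1 difference, GPR180 was followed by C5orf15, SKAP2, TEX30 and SLK, with steps of 0.11, 0.12, 0.01 and 0.09. The standard errors of the differences were 0.07 to 0.11. A step carries the errors of 2 such differences, so no step is read as setting 2 genes apart. The steps were not tested.

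With siRNA 2 the 5 genes lay near control, which their choice largely fixes, and differences among them were not tested. GPR180, SKAP2 and C5orf15 had both siRNA 2 arrays above both control arrays, as had 25% of all tested genes. TEX30 had both below, as had 25.6%, and those of SLK overlapped the controls. Their log2 differences ran from -0.10 to 0.24, with a median of 0.08, beside a median of 0.00 over all tested genes. With siRNA 1 the median of the 5 was -1.20, where the lowest 1% of all tested genes began at -0.57. Set directly against siRNA 2, a comparison that uses no control array, the 5 differences ran from -1.66 for GPR180 to -1.04 for SLK, with a median of -1.40, and the lowest 1% of all genes began at -0.65. Both comparisons against control share the same 2 control arrays, so they are given side by side and not correlated.

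The rule that picked the genes names no numerical limit, and other genes held similar values. MIR31HG, the host transcript of the microRNA miR-31, had the lowest siRNA 1 difference of all, at -1.98, with -0.04 for siRNA 2. The ubiquitin ligase UBE3C, at -1.35 and 0.12, lay between GPR180 and C5orf15. The sphingosine-1-phosphate phosphatase SGPP1 (-1.17 and -0.30) and the deubiquitinase STAMBP (-1.12 and -0.08) lay between TEX30 and SLK. Just beyond SLK, after MYEOV itself, came ADAM9 (-1.08 and -0.13), which sheds membrane proteins, the Polycomb protein SCML2 (-1.05 and 0.52), the mitochondrial protease AFG3L2 (-1.01 and 0.05) and TTC9C (-1.01 and -0.29). FCHSD2 (-0.98 and -0.18), which promotes actin assembly at the membrane, and the Polycomb protein PCGF5 (-0.98 and -0.17) followed. Of all tested genes, 12 (0.161%) had a siRNA 1 difference of -1 or lower together with a siRNA 2 difference under 0.5 in size, and the 5 genes are among them.

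A wider class can be set by limma's calls at a Benjamini-Hochberg adjusted p under 0.05. For siRNA 1 against control 2.38% of tested genes were called lower, and for siRNA 1 against siRNA 2 3.78% were called lower. In 120 genes (1.61%) both calls were made and siRNA 2 was not called against control. The 5 genes hold places 2, 4, 5, 6 and 9 of these 120 by the size of the siRNA 1 difference, and the median of the 120 was -0.58. Their own calls are not read as evidence, since the genes were chosen on these comparisons.

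**Figure D2:**
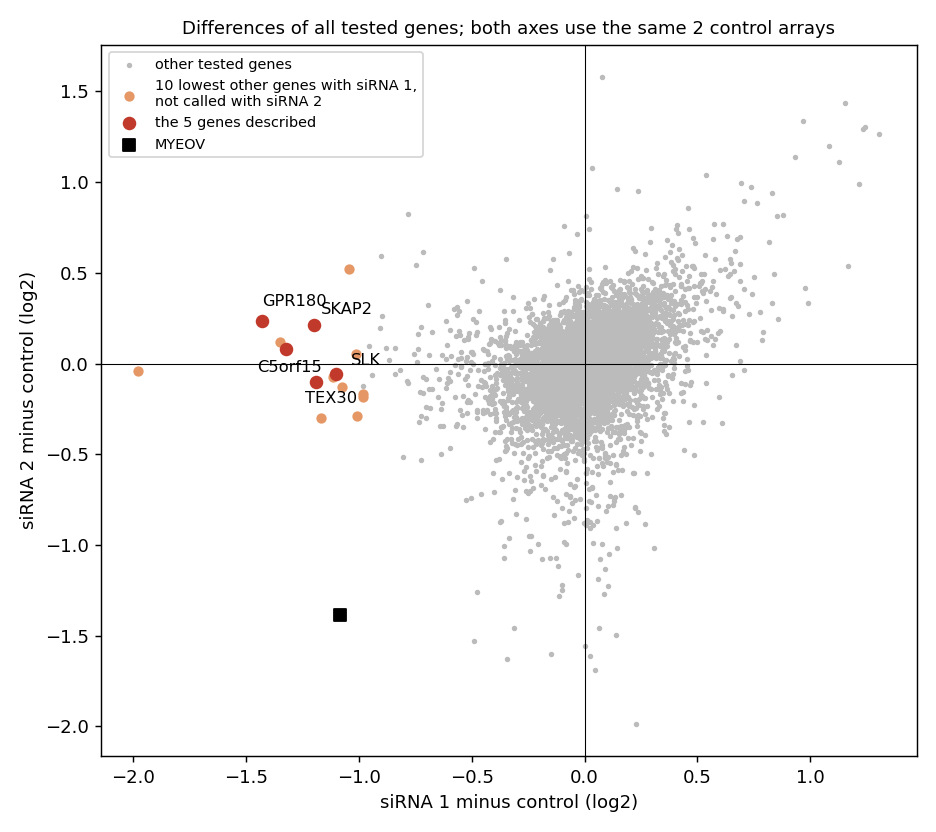
Log2 difference from control with siRNA 1 (horizontal) and siRNA 2 (vertical) for the 7442 tested genes in grey, the 5 genes in red, the 10 lowest other genes not called with siRNA 2 in orange, and MYEOV as a black square. The 5 genes lie between -1.43 and -1.10 on the horizontal axis and between -0.10 and 0.24 on the vertical one, among other genes with like values; both axes share the control arrays.

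The genes with the most similar profiles were sought among the 1378 tested genes whose values spanned at least 0.5 on the log2 scale, by Pearson's r over the 6 arrays, as a description; the other 4 of the 5 genes were left out of this ranking. GPR180 was closest to the ubiquitin ligases UBE4A (r = 0.996) and UBE3C (0.995) and to the phosphatase CPPED1 (0.995). SKAP2 was closest to TMEM161B (0.996), to PPAT (0.994), which catalyses the first committed step of purine synthesis, and to the zinc finger gene ZNF609 (r = 0.993, just below that of SKAP2 with GPR180). The profile of SLK was nearest to those of CCDC28A (0.998), the microtubule-associated protein gene MAP1B (0.996) and MIR31HG (0.995). TEX30 was nearest to the vitamin B6-binding protein gene PLPBP (0.999), ADAM9 (0.998) and MAP1B (0.997), and C5orf15 to UBE3C (0.999), the kinase MARK3 (0.999) and UBE4A (0.998). Between the 5 genes themselves r ran from 0.960 (GPR180 with SLK) to 0.994 (GPR180 with C5orf15). Values this high follow from the choice of genes low in the same 2 of 6 arrays, and r says nothing of size: CPPED1 had a siRNA 1 difference of -0.37 and TMEM161B of -0.45, against -1.43 and -1.20 for the genes they resemble.

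Genes related to the 5 by family or pathway were looked at next. The rule that chose the 5 did not use them. Of 80 related genes in 7 lists, 64 had a named row and 53 were tested. The lists were drawn up with earlier results of these data known, among them the rise of TMEM87B. The shares called are therefore not independent of these data. A share above that of all tested genes is not read as a result. With siRNA 1, limma called 4 higher and 1 lower of the 53 (9.43%, against 4.66% of all tested genes, either direction). With siRNA 2 it called 4 higher and 4 lower (15.1%, against 6.83%), and 6 differed between the siRNAs (11.3%, against 9.15%). The medians over the 53 genes were 0.04, 0.01 and 0.01 on the log2 scale, beside 0.00 over all tested genes in each comparison.

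Among the 7 other GOLD-domain membrane proteins of the GPR180 family, 2 were called higher with siRNA 1 and 2 higher and 1 lower with siRNA 2. These shares were 28.6% and 42.9%, against 4.66% and 6.83% of all tested genes, in a list drawn up with the rise of TMEM87B known. TMEM87B, a Golgi protein, rose with both, by 1.23 ± 0.11 (SE; limma, Benjamini-Hochberg adjusted p = 0.00235) and 1.29 ± 0.11 (adjusted p = 0.00103). TMEM181 rose with siRNA 1, by 0.44 (adjusted p = 0.0235), and fell with siRNA 2, at -0.48 (adjusted p = 0.0121), a difference of 0.92 between the siRNAs (limma adjusted p = 0.000692). TMEM87A rose with siRNA 2, by 0.41 (limma adjusted p = 0.0258). GPR107, GPR108, WLS and TMEM145 had differences between -0.10 and 0.18 and were not called. GPR180 itself, at -1.43, lay opposite to TMEM87B with siRNA 1. When single arrays were left out TMEM87B was called every time. TMEM181 lost the siRNA 1 call without any 1 of the 4 arrays compared (limma adjusted p up to 0.136) and the siRNA 2 call without control replicate 1, control replicate 2 or siRNA 2 replicate 1 (0.0713, 0.0541 and 0.0741), and TMEM87A without any 1 of the 4 arrays compared (up to 0.120).

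GPR180 has also been linked to TGF-beta signalling as a binding partner of the secreted protein CTHRC1. CTHRC1 itself lay below the level filter. Of the 4 tested genes, SMAD2, a receptor-activated mediator of TGF-beta, rose with siRNA 2, by 0.34 (limma adjusted p = 0.0451), and had 0.29 with siRNA 1 (adjusted p = 0.0859). The SMAD2 call was lost whichever array was left out (limma adjusted p from 0.0653 to 0.199). SMAD3, SMAD4 and the inhibitor SMAD7 were not called, at -0.07, -0.09 and 0.08 with siRNA 1. Without siRNA 2 replicate 1, SMAD3 was called lower with siRNA 2, at -0.58 (limma adjusted p = 0.0257).

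None of the 8 tested genes around SKAP2 was called in any of the 3 comparisons by limma, with 1, 0 and 1 at an unadjusted p under 0.05. Of all tested genes 4.66%, 6.83% and 9.15% were called, so in a list this short no calls are not read as a result. The rows of these 8 are given as a description. They were the Src-family kinases SRC, YES1 and LYN, their inhibitor CSK, the focal adhesion kinases PTK2 and PTK2B, the adaptor FYB1 and the receptor SIRPA. Their siRNA 1 differences ran from -0.16 for CSK to 0.22 for YES1. SKAP1, the T-cell relative of SKAP2, lay below the filter, as did FYB2, PRAM1, FGR, LCK and BLK. YES1 differed between the siRNAs with the filter at the 75th percentile and with the trend and robust prior (limma adjusted p = 0.0305 and 0.0310).

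Of 14 tested STE20-type kinases related to SLK, 1 was called higher and 1 lower with siRNA 1, and 2 lower with siRNA 2. The share was 14.3% with each, against 4.66% and 6.83% of all tested genes, and is not read as a result. STK39, which activates ion cotransporters, fell with siRNA 1, at -0.69 ± 0.08 (SE; limma adjusted p = 0.00604), had 0.32 with siRNA 2 (adjusted p = 0.0588) and differed by -1.01 between the siRNAs (limma adjusted p = 0.000602). STK39 was thus low in the same 2 arrays as SLK, by a smaller amount. STK4, a Hippo pathway kinase, had 0.10 with siRNA 1 and fell with siRNA 2, at -0.54 (limma adjusted p = 0.0120). MAP4K5 fell with siRNA 2, at -0.35 (limma adjusted p = 0.0279), and TAOK3 rose with siRNA 1, by 0.35 (limma adjusted p = 0.0469). STK10, the closest relative of SLK, was not called, at -0.13 with siRNA 1 and -0.16 with siRNA 2. The STK39 call against control was lost without control replicate 2 or siRNA 1 replicate 2 (limma adjusted p = 0.0512 and 0.0501) and that of STK4 without control replicate 2 or siRNA 2 replicate 2 (0.0596 and 0.0755). Those of MAP4K5 and TAOK3 were lost whichever array was left out (up to 0.153 and 0.220).

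The ezrin, radixin and moesin genes, whose proteins SLK phosphorylates, were not called with siRNA 1, where SLK was low. The arrays measured RNA, and phosphorylation of these proteins was not measured. EZR had 0.07, RDX 0.45 (limma adjusted p = 0.175) and MSN 0.04. With siRNA 2, where SLK was near control, MSN fell, at -0.99 ± 0.07 (SE; limma adjusted p = 0.00053), and differed by 1.03 between the siRNAs (adjusted p = 0.000289). The log2 signal of MSN was 11.56 and 11.65 in the controls, 11.64 and 11.65 in the siRNA 1 arrays and 10.61 and 10.63 in the siRNA 2 arrays. With the replicate number as a block RDX was called higher with both siRNAs (limma adjusted p = 0.0483 and 0.0359). Paxillin, PXN, the LIM-domain cofactor LDB1, the dynactin subunit DCTN1 and RHOA were not called, with differences from -0.10 to 0.09 with siRNA 1 and from -0.29 (LDB1) to 0.05 with siRNA 2. LDB1 was called lower with siRNA 2 with the replicate number as a block, with the filter at the 75th percentile and with the trend and robust prior (limma adjusted p = 0.0477, 0.0239 and 0.0290).

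Of 12 tested alpha/beta hydrolase genes related to TEX30, ABHD13 rose with both siRNAs, by 0.37 (limma adjusted p = 0.0324) and 0.38 (adjusted p = 0.0201). ABHD14B differed between the siRNAs by 0.42 (limma adjusted p = 0.0279), a call lost without any 1 of their 4 arrays (up to 0.151). KANSL3, the relative of TEX30 in the histone acetyltransferase complex, was not called, at -0.03 with each. The ABHD13 call with siRNA 1 was lost whichever array was left out (limma adjusted p from 0.0573 to 0.173), and with siRNA 2 without any 1 of the 4 arrays compared (up to 0.119). For C5orf15, KRTCAP2, another gene first described in keratinocytes, was tested and not called, at 0.04 and 0.03.

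**Figure D3:**
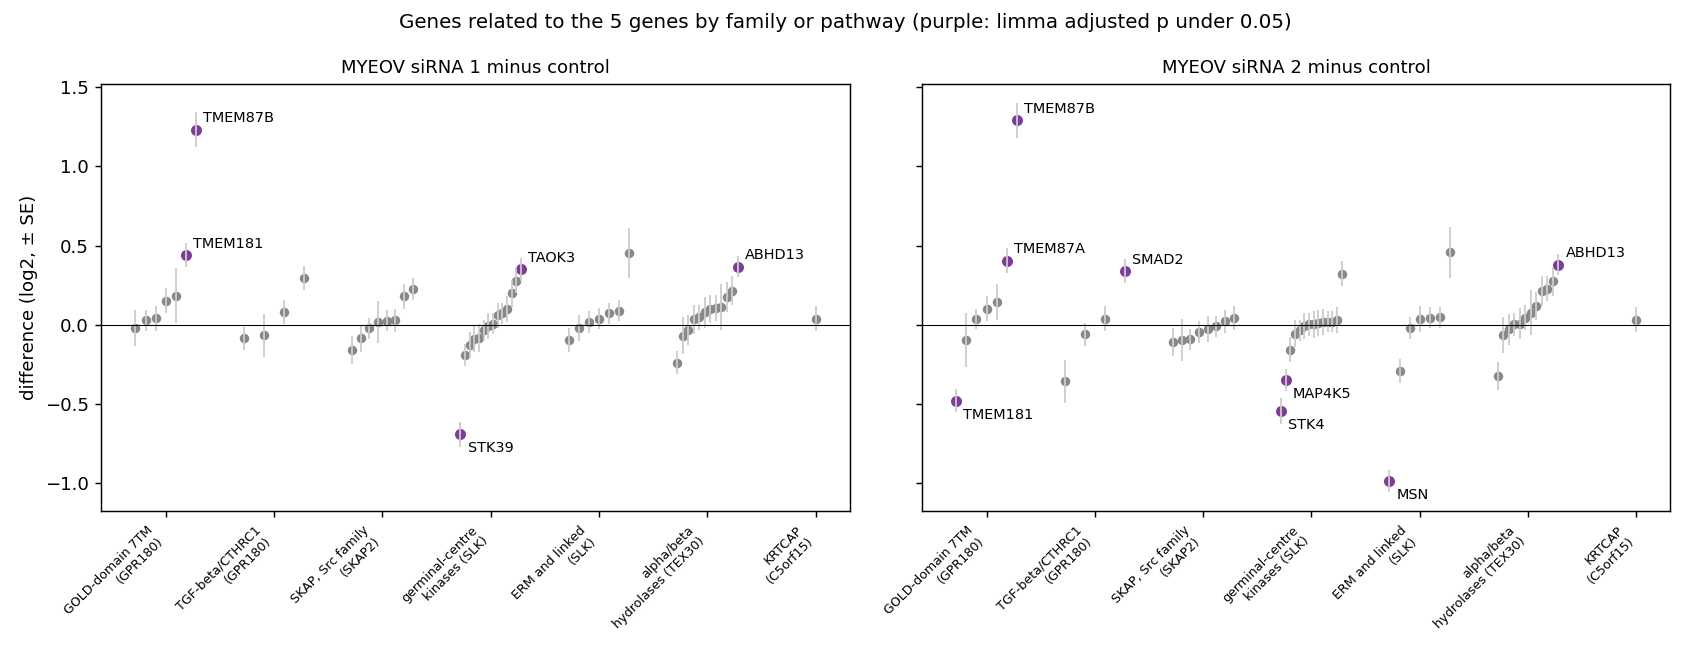
Log2 difference from control (± SE) of the 53 tested related genes in 7 lists, with siRNA 1 on the left and siRNA 2 on the right; purple dots with names are genes called by limma at an adjusted p under 0.05. TMEM87B is the highest dot in both panels, at 1.23 and 1.29, and MSN the lowest with siRNA 2, at -0.99. The lowest with siRNA 1 is STK39, at -0.69. That it lies above the 5 genes is largely fixed by their choice for low siRNA 1 values.

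None of the tested neighbours of the 5 genes on their chromosomes lay as low with siRNA 1, which the choice of the 5 largely fixes. GPR180 and TEX30 both lie on chromosome 13, without being neighbours, and the other 3 on chromosomes 7, 10 and 5. Up to 5 protein-coding genes with a named row were taken on each side of every gene from the RefSeq gene order, which gave 50 genes, of which 27 were tested. No limit was set on distance, so a neighbour in this order may lie far from the gene. With siRNA 1, limma called 1 of the 27 higher and 0 lower (3.70%, against 4.66% of all tested genes), and 5 had an unadjusted p under 0.05. With siRNA 2 it called 1 higher and 1 lower (7.41%, against 6.83%), and between the siRNAs 0 (against 9.15%), with 4 at an unadjusted p under 0.05. The called genes were ABHD13, among the genes taken around TEX30, and SPRY2, among those taken around GPR180. SPRY2, a feedback inhibitor of receptor tyrosine kinase signalling, fell with siRNA 2, at -0.60 (limma adjusted p = 0.0159), and had -0.34 with siRNA 1 (adjusted p = 0.122). The SPRY2 call was lost without control replicate 1 or siRNA 2 replicate 2 (limma adjusted p = 0.0895 and 0.0851), and with the replicate number as a block SPRY2 was called lower with siRNA 1 too (0.0389).

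The nearest tested genes on both sides of each gene were not called. Beside SKAP2, the heterochromatin protein gene CBX3 had -0.08 and the homeobox gene HOXA2 0.10 with siRNA 1. On the sides of SLK, the telomere replication factor gene STN1 had 0.06 and the recombination factor gene SFR1 0.08. Around TEX30, the peptidase gene TPP2 had 0.03 and the protein glucosyltransferase gene POGLUT2 0.13. Around C5orf15, the heat shock protein gene HSPA4 had -0.14 and VDAC1, the mitochondrial outer membrane channel, -0.02. Around GPR180, the glypican gene GPC6 had -0.04 and DZIP1, a cilium gene, 0.14. The lowest siRNA 1 difference of the 27 was that of SPRY2, at -0.34. With the 5 genes chosen for low siRNA 1 values, the distance between them and the tested neighbours was largely fixed in advance. Neighbours without a named row were not analysed here, and the other 23 lay below the level filter.

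**Figure D4:**
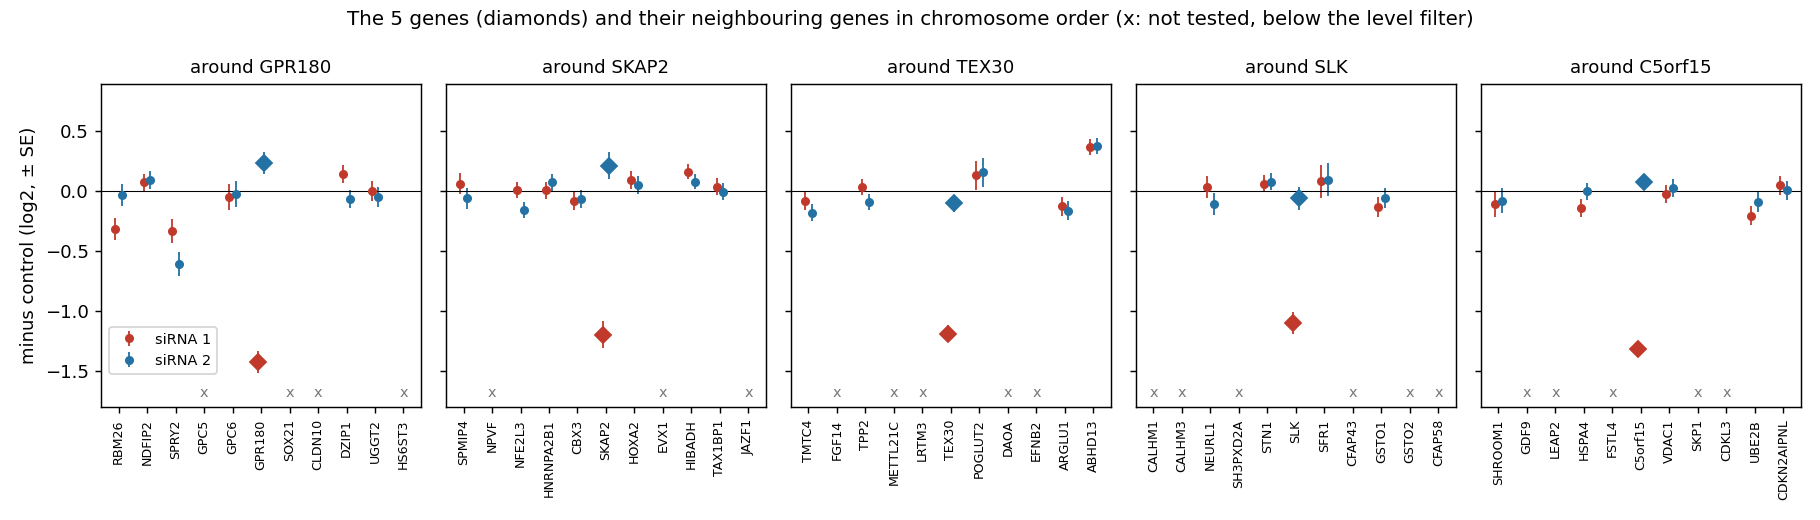
Log2 difference from control (± SE) of the 5 genes (diamonds) and of up to 5 named protein-coding genes on each side in chromosome order, for siRNA 1 (red) and siRNA 2 (blue); crosses mark genes below the level filter. The red diamonds lie between -1.43 and -1.10, and every tested neighbour lies between -0.34 and 0.37 with siRNA 1. The 5 genes were chosen for low siRNA 1 values, which largely fixes this contrast.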

How the data were processed

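RNA of A549 cells was hybridised to Affymetrix whole-transcript arrays, 2 in each of 3 groups. The authors deposited values on the log2 scale. Per the submitters' processing notes they come from RMA (no version given), a background correction, quantile normalization and probe summary. No further normalization was applied. Of 53617 rows, 16098 had 1 gene symbol, 0 several and 37519 none; symbols were updated through gene identifiers to RefSeq GRCh38.p14 (16098 matched). Of 779 genes with several rows the row with the highest mean was used, and genes with a mean of at least 5.45, the median of the 14884 named genes, were tested (7442).

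Limma 3.58.1 in R 4.3.3 was fitted to all 6 arrays with 3 groups (3 residual and 4.09 prior degrees of freedom), with Benjamini-Hochberg adjustment over all tested genes and calls at 0.05. The steps were tested on simulated data. An exact permutation of 2 arrays against 2 cannot pass 0.05, so all calls depend on limma's shared variance estimate. The members and lists were chosen with earlier results of these data known. Genes named were the members, MYEOV, the 3 most similar profiles per member, the 10 lowest other genes with siRNA 1 not called with siRNA 2, called genes of the related lists (with others as examples) and of the neighbours, and the nearest neighbours. RefSeq promoter windows matched all 5 members; 16 list genes without a named row were not analysed here. Alternatives were 2 other filters, averaged rows, quantile normalization, median centring, the replicate block, a trend and robust prior, fits of only the groups compared, and leaving out each array. Figures were drawn with matplotlib 3.10.9. The number of arrays limits the precision.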

Additional observations from a re-analysis of the deposited data

Results flagged for a closer look

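Of the 53 tested genes related to the 5, 6 differed between the siRNAs, by the test of that difference itself (limma, Benjamini-Hochberg adjusted over all tested genes). This share, 11.3%, was near the 9.15% of all tested genes, and the lists were drawn up with earlier results of these data known. The number of such genes is therefore not read as a result. The largest was MSN, encoding moesin, a protein that SLK phosphorylates, which was higher with siRNA 1 than with siRNA 2 by 1.03 on the log2 scale (adjusted p = 0.000289). STK39, a kinase related to SLK, was lower with siRNA 1, at -1.01 (adjusted p = 0.000602). TMEM181, of the GPR180 family, was higher with siRNA 1 by 0.92 (adjusted p = 0.000692) and moved in opposite directions from control. STK4 was higher with siRNA 1 by 0.64 (adjusted p = 0.00470), ABHD14B by 0.42 (adjusted p = 0.0279) and TAOK3 by 0.35 (adjusted p = 0.0296). The calls of ABHD14B and TAOK3 were lost without any 1 of the 4 arrays compared (limma adjusted p up to 0.151 and 0.159). In each of these genes both siRNA groups are single pairs of arrays.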

How the results depend on the processing

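The 5 genes kept their direction with siRNA 1 under each alternative run on them, which their choice for low siRNA 1 values largely fixes. Their median log2 difference ran from -1.31 to -1.16 against control and from -1.41 to -1.32 against siRNA 2 when single arrays were left out, and from 0.06 to 0.10 for siRNA 2 against control. It was -1.20 against control with quantile normalization and -1.21 with median centring. The counts of calls depended more on the settings. With no filter on dim genes, limma called 39 genes for siRNA 1 and 139 for siRNA 2 against control and 195 between the siRNAs, where the tests reported called 347, 508 and 681. When single arrays were left out the counts ran from 58 to 235, from 207 to 331 and from 226 to 618. With only the arrays of the groups compared, siRNA 2 had 331. Related genes called numbered 1 for siRNA 1 and 2 for siRNA 2 with no filter, 3 for siRNA 1 with only the arrays compared, and from 1 to 3, from 2 to 6 and from 4 to 6 (between the siRNAs) when single arrays were left out, in place of 5, 8 and 6. Neighbours called for siRNA 1 numbered 0 with no filter and with only the arrays compared, 2 with the replicate block and 0 whichever array was left out. For siRNA 2 they numbered 0 with no filter and with the filter at the 75th percentile, and from 0 to 2 when single arrays were left out. The calls of TMEM87B against control, of MSN with siRNA 2, and of MSN, STK39, STK4 and TMEM181 between the siRNAs were kept under each alternative run. So was that of MYEOV with siRNA 2. All other calls given for MYEOV, the related genes and the neighbours were lost with no filter. Those of SMAD2 with siRNA 2 and of TAOK3 with siRNA 1 were lost with median centring too. Under some alternative limma also called RBM26, MAP4K4, LDB1, YES1, SMAD3, RDX, or another listed gene in a further comparison. Replicate numbers are given by the labels but not said to pair arrays. Same-numbered arrays deviated together, with correlations of 0.27, 0.20 and 0.25 between groups, and with the replicate block 420, 702 and 922 genes were called. The small number of arrays and the compression of dim signals by RMA limit what could be detected. The causes of these changes were not tested.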
